A study of Mus musculus with 12 samples.

Results

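The genes described here encode the machinery of DNA replication and the factors that take a cell from G1 into S phase. They were chosen as a named set of 44 symbols, each with at least 120 counts summed over the 12 libraries, out of 46078 genes listed. All 44 were found, with 1179 to 72306 counts each, and all 44 also passed the filter on low counts that left 14009 genes for testing. The set was named with earlier results of these data known, although its rule uses no comparison between culture groups.

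Replication starts in G1, when the origin recognition complex (ORC), Cdc6 and Cdt1 load the ring-shaped MCM helicase onto DNA, a step called licensing. At S phase entry, Mcm10, Cdc45 and the GINS complex switch the helicase on, the polymerases copy the strands on the sliding clamp PCNA, and the E2F transcription factors and cyclin E drive transcription of many of these genes. CD8 T cells that have been activated divide fast and carry high levels of this machinery, while quiescent T cells carry little of it.

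RNA was sequenced from CD8 T cells of C57BL/6 mouse spleen, the lymphocytes that kill infected cells, after culture until day 7. Every culture received interleukin 2 and interleukin 15, growth and survival cytokines of T cells, and these 2 alone made up the group IL-2 + IL-15. The RA group also received all-trans retinoic acid, which is made from vitamin A and binds nuclear receptors. The TGFβ group received transforming growth factor beta, a cytokine that signals through SMAD proteins, and the TGFβ + RA group received both. Each group had 3 samples, and the series title gives the aim as making tissue-resident memory (Trm) CD8 T cells in vitro. The labels call the samples biological replicates without saying whether a number stands for 1 animal, and a p-value here speaks only for the variation among the samples given.

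Libraries held 18300206 to 33477037 counts, of which the 44 genes took 0.173% to 0.335%. The CD8 T cell markers Cd8a, Cd8b1, Cd3e, Cd3d, Cd3g and Trac were present in every library, at a summed 3884 to 4492 CPM (counts set to a common library size by TMM) in IL-2 + IL-15, 3952 to 4212 in RA, 6487 to 6756 in TGFβ and 7242 to 7529.7 in TGFβ + RA. The 6 markers of natural killer cells summed to 116 to 189.6, 92.8 to 191, 34.0 to 44.4 and 26.2 to 40.2 CPM in the same order, mostly from Eomes, which CD8 T cells also express. The defining marker Ncr1 had at most 14 counts in any library. Klrb1c had 225 to 451 counts in IL-2 + IL-15, 355 to 1164 in RA, 6 to 37 in TGFβ and 13 to 35 in TGFβ + RA. With RA, 3 of the 5 tested markers of this list were higher and 0 lower at the threshold given below, where 12.4% of all tested genes were higher. Marker sums of CD4 T cells were 67.7 to 91.3 CPM without TGFβ, 84.8 to 88.0 in TGFβ and 195 to 267 in TGFβ + RA, where Foxp3 supplied most of the sum and Cd4 had 7 to 20 counts. The 5 B cell markers summed to 12.8 to 30.4 CPM over all libraries, the 7 erythroid and stromal markers to 55.4 to 106, and the 10 myeloid markers to 3.33 to 49.2. In the B cell list 1 or 2 genes had no count in a group, as had 2 or 3 in the erythroid and stromal list and 1 to 4 in the myeloid list. TGFβ + RA replicate 3 carried more myeloid RNA than the other libraries of its group, with 323 counts of Lyz2. The part of these markers in the results was not tested. IL-2 + IL-15 replicate 1 and RA replicate 3 stood farthest from their groups, with a chi-square of 9.27 to 24 for each degree of freedom against their fellow replicates, and counts are given below also for the 9 libraries left without these 2 and TGFβ + RA replicate 3. The shares of all tested genes given below come from all 12 libraries and not from the 9.

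The replication genes were highest in IL-2 + IL-15 and lowest in TGFβ + RA. Summed over the 44 genes, the level was 3201 ± 167 CPM in IL-2 + IL-15, 2434 ± 182 CPM with RA, 2713 ± 114 CPM with TGFβ and 1712 ± 34 CPM with both. The 3 libraries of each group lay apart from those of the other groups: RA libraries were all below TGFβ libraries, and TGFβ + RA libraries were all below RA libraries. As a share of the IL-2 + IL-15 mean this was 76.1% with RA, 84.8% with TGFβ and 53.5% with both. The order from IL-2 + IL-15 over TGFβ and RA down to TGFβ + RA held for the group means of 30 of the 44 genes, and in 14 genes the 3 libraries of every neighbouring pair of groups did not overlap. IL-2 + IL-15 was the highest group for 39 genes and TGFβ + RA the lowest for 41. These counts of order were not taken over all tested genes, so how usual they are is not known. Bulk RNA cannot tell fewer cells in S phase from less of each transcript per cell.

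A gene was called changed at a Benjamini-Hochberg adjusted p under 0.05 from edgeR's quasi-likelihood test over all 14009 genes, and values below are log2 fold changes ± SE unless another unit is given. With RA alone, 34 of the 44 fell and 0 rose, where 14.3% of all tested genes were called lower and 12.4% higher. No gene of the set was higher at an unadjusted p under 0.05, and DESeq2's Wald test also called 0 higher. The median of the 44 was -0.43 and that of all tested genes -0.0014. The 10 without a call were Mcm2, Gins1, Pold2, Rfc2, Rfc4, Rpa1, Lig1, Slbp, Ccne1 and E2f1. In 36 genes the 3 RA libraries lay below the 3 IL-2 + IL-15 libraries, against 18.7% of all tested genes. With the 9 libraries 28 were called lower and 1 higher, Lig1. Over 19 alternative settings, which include leaving out each library in turn, 28 of the 34 calls held in every one. The call was lost in 6 for Prim2 and Rfc5, in 4 for Fen1 and Chaf1b, in 2 for Chaf1a and in 1 for Orc1. Here and below, some settings leave out a library of a group outside the comparison. Such settings keep every library compared and alter only the filter, the scaling and the shared spread, so they test a call less.

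With TGFβ alone, 28 of the 44 fell and 2 rose, where 22.4% of all tested genes were called lower and 20.7% higher. The median was -0.27 for the set and 0.00119 for all genes. Leaving out TGFβ replicate 2 lowered the count to 17, and the 9 libraries gave 24 lower and 3 higher. Scaling by library totals in place of TMM gave 22 lower and 3 higher in the set, and over all genes 3873 higher and 2549 lower in place of 2899 and 3135. The genes that rose were Rpa1 and Rfc2. Of the 30 calls, 18 held in every one of the 19 settings. That of Prim2 was lost in 16, Gins1 in 8, Mcm10 and Chaf1a in 6, Cdt1 and Mcm4 in 5, Orc1, Gins2, Rrm2 and Pold2 in 3, and Brca1 and Rrm1 in 1. The 14 without a call included all 4 G1/S regulators (E2f1, E2f2, Ccne1, Ccne2), and also Clspn, Tyms, Pole2, Prim1, Fen1, Lig1, Rpa2, Rfc5, Chaf1b and Slbp.

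With TGFβ and RA together, every one of the 44 was called, against 63.2% of all tested genes: 42 fell and 2 rose, where 32.4% of all tested genes were called lower and 30.8% higher. The set's median was -1.22, against 0.00164 for all genes, and the range ran from -4.29 for Orc1 to 0.55 for Rpa1. The 3 TGFβ + RA libraries lay below the 3 IL-2 + IL-15 libraries in 42 genes and above them in 2, against 35.4% and 34.5% of all tested genes. The 9 libraries gave 41 lower and 2 higher. Of the 44 calls, 42 held in every one of the 19 settings, and those of Lig1 and Pold2 were lost in 8 and 4. These 3 comparisons share the IL-2 + IL-15 libraries. In all, 24 genes fell in each of the 3, a count that was not taken over all tested genes.

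**Figure D1:**
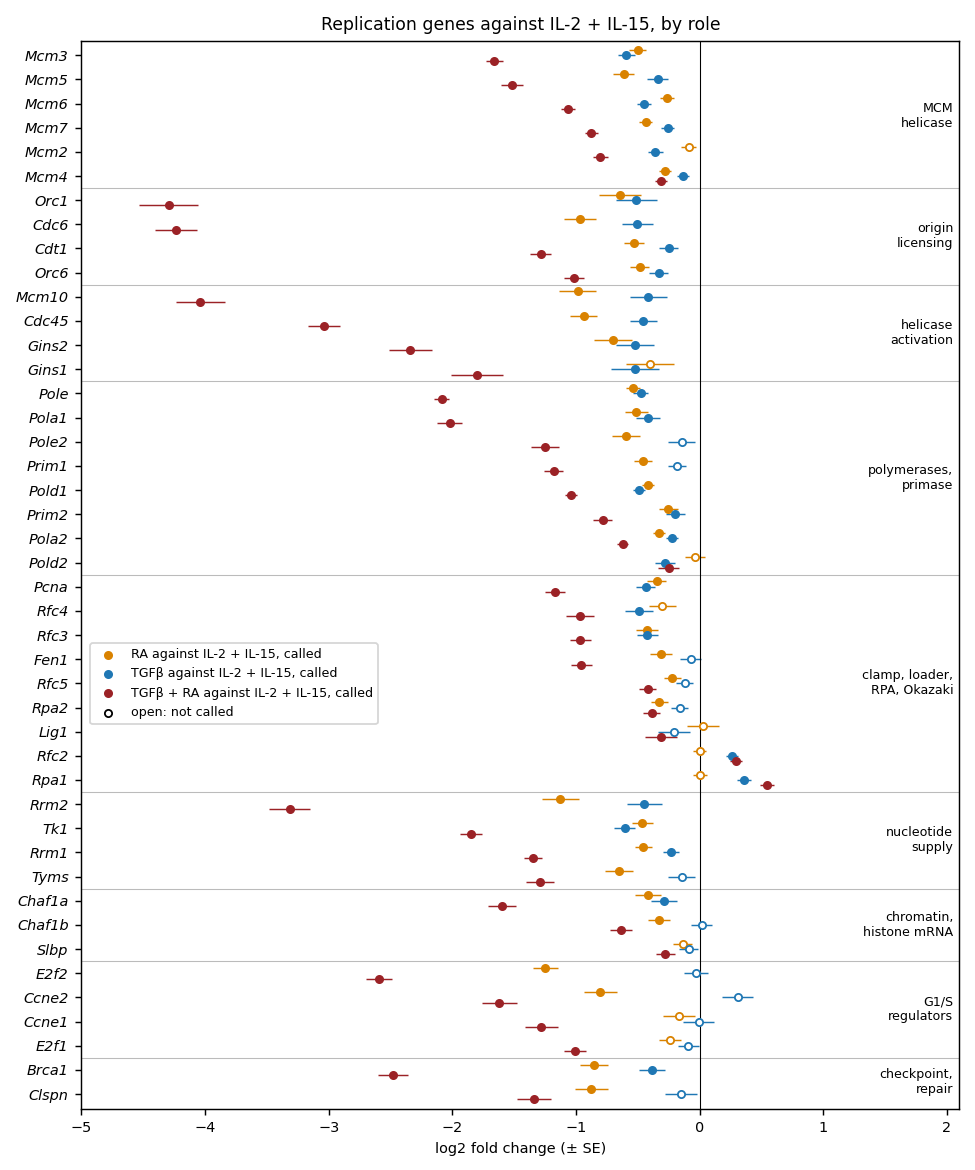
Log2 fold change of each of the 44 genes against IL-2 + IL-15 on the x axis, by role, for each of the other 3 groups. Points are edgeR estimates from 3 libraries a group, bars are ± SE, and filled points were called. Values with both factors reach -4.29 (Orc1), while Rpa1 and Rfc2 lie to the right of 0 with TGFβ and with both.

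Adding RA to cultures that had TGFβ lowered 39 of the 44 and raised 1, Rpa1, where 22.7% of all tested genes were called lower and 20.3% higher. The median was -1.02, and 0.0114 over all genes. Pold2, Rfc2, Lig1 and Slbp were not called. The call of Rpa1 was lost without TGFβ replicate 2 (adjusted p = 0.0701 by edgeR) or TGFβ + RA replicate 2 (0.0853), which left 0 higher. That of Rpa2 was lost in 2 of the 19 settings, and the other 38 calls held in every one. Slbp was called lower in 6 settings. Adding TGFβ to cultures that had RA lowered 39 and raised 2, Rpa1 and Rfc2, where 30.8% of all tested genes were called lower and 29.4% higher. There the median was -0.74, against -0.00281 over all genes, and Mcm4, Rpa2 and Slbp were not called. Of the 41 calls, 36 held in every one of the 19 settings. Calls were lost in 8 for Pold2, in 6 for Lig1, in 5 for Rfc5 and in 3 for Clspn and Chaf1b. Slbp was called lower in 3 settings. These comparisons share the TGFβ + RA libraries. The 9 libraries gave 39 lower in both, with 1 and 2 higher. Across the 5 comparisons of 2 groups, which reuse the same libraries, 23 genes fell in every one. That count was not taken over all tested genes either.

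The interaction asks whether the effect of both factors differs from the sum of their single effects on the log2 scale. It was negative and called in 28 of the 44 genes and positive and called in 0, where 12.3% of all tested genes were called negative and 6.95% positive. By edgeR 1 gene, Rpa1, was positive at an unadjusted p under 0.05, and DESeq2's Wald test called 0. The median interaction was -0.51, against -0.00426 over all genes, and the 9 libraries gave 32 negative and 0 positive. Over all tested genes, the 9 libraries gave more positive interactions than the 12. The count of 32 therefore cannot be set against the shares above, which come from all 12 libraries. Of the 28 calls, 23 held in all 18 alternative settings. Those of Gins1, Tyms and Prim2 were lost in 11, that of Pole2 in 8 and that of Pcna in 6. The effect of RA was lower in the presence of TGFβ than in its absence in 39 of the 44 genes. The effect of TGFβ with and without RA differs by the same amount, which is the interaction, so it gives no second count. Over the 44 genes, which share the same 12 libraries, the effect of RA without and with TGFβ had Pearson's r = 0.83 and Spearman's rho = 0.85, and the effect of TGFβ without and with RA had r = 0.58 and rho = 0.62.

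**Figure D2:**
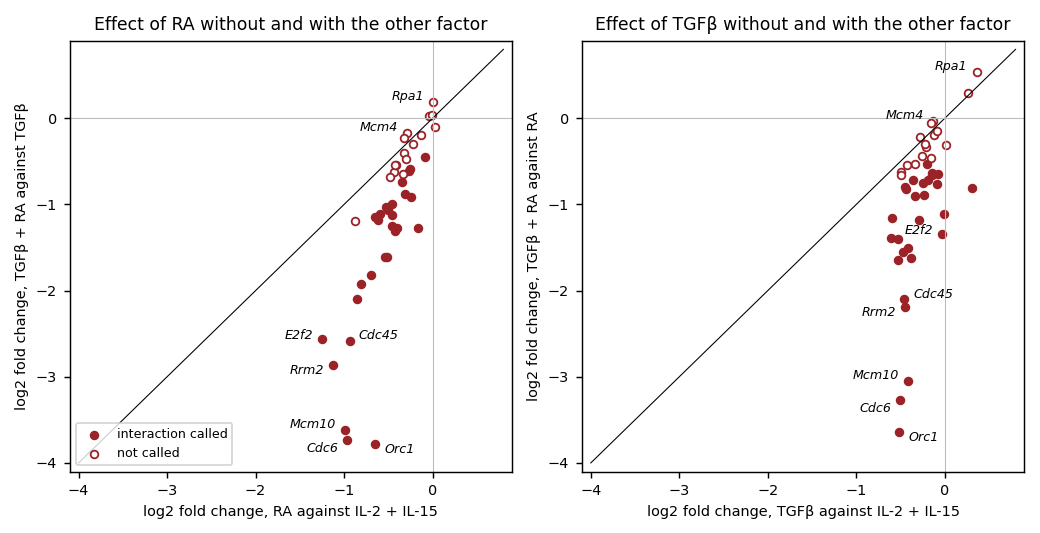
Each point is 1 of the 44 genes. The left panel sets the log2 fold change of RA without TGFβ (x axis) against that with TGFβ (y axis), the right panel does the same for TGFβ without and with RA, the line marks equal effects, and filled points had a called interaction. A point's height above or below the line is its interaction, the same in both panels, and it is negative in 39 of the 44, with Orc1, Cdc6 and Mcm10 farthest from it.

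The origin licensing genes Orc1 and Cdc6 held the lowest fold changes of the set with both factors. Orc1, the largest ORC subunit, is gene ENSMUSG00000028587 on chromosome 4 (108579423 to 108614833, plus strand, GRCm38). Its level was 6.99, 6.31 and 5.86 CPM in IL-2 + IL-15, 4.73, 4.40 and 3.04 with RA, 4.98, 4.32 and 4.08 with TGFβ and 0.370, 0.376 and 0.221 with both. All 3 TGFβ + RA libraries were far below the other 9, and the RA and TGFβ libraries overlapped. The fold change with both factors was -4.29 ± 0.24 (adjusted p = 4.06e-09), a level 5.10% of that in IL-2 + IL-15, where the sum of the single effects (-0.65 and -0.51) would leave 44.7%. Those 3 libraries held 7, 12 and 6 counts of Orc1, against 155 to 191 in IL-2 + IL-15, so its SE may understate the error. Orc1 was also the lowest gene of the set per exon length, at 1.09 RPKM (CPM per kilobase of exon) over all libraries, and 10.8% of its exon bases are also annotated in Gm12743 on the opposite strand.

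Cdc6, the ATPase that brings MCM to ORC, followed the same order of groups (ENSMUSG00000017499, chromosome 11, 98907801 to 98923940). It was at 29, 25 and 23.9 CPM in IL-2 + IL-15, 14.9, 14.9 and 9.85 with RA, 19.3, 17.7 and 17.9 with TGFβ and 1.48, 1.41 and 1.25 with both. No 2 groups overlapped, and RA replicate 3 was low within its group. The fold changes of Cdc6 were -0.97 with RA, -0.50 with TGFβ and -4.23 ± 0.17 (adjusted p = 2.61e-10) with both, and its interaction was -2.76 ± 0.22 (adjusted p = 4.01e-06). Cdt1, the other loading factor and the licensing gene with the highest RPKM, was at 72.2, 65.9 and 71.3 CPM in IL-2 + IL-15, 53.5, 49.5 and 41.8 with RA, 63.8, 56.1 and 56 with TGFβ and 29.3, 27.5 and 29.2 with both. Its TGFβ + RA libraries were below all others, yet its fold change with both, -1.29 ± 0.08 (adjusted p = 1.7e-08), was smaller than those of Orc1 and Cdc6. Orc6, a small ORC subunit, fell by 1.02 with both. Of the 4 licensing genes, 4 fell in each of the 3 comparisons with IL-2 + IL-15, and the interaction was called for Orc1, Cdc6 and Cdt1 but not for Orc6 (-0.20 ± 0.11, adjusted p = 0.233). Among all tested genes, 14.3% were called lower with RA, 22.4% with TGFβ and 32.4% with both, and 12.3% had a called negative interaction. These shares also stand beside the counts of each role below.

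The 4 genes of helicase activation lost, with both factors, the largest share of summed level of any role: 78.6 ± 9.36 CPM in IL-2 + IL-15, 42.8 ± 7.23 CPM with RA, 57.3 ± 4.02 CPM with TGFβ and 9.46 ± 1.19 CPM with both. The last was 12% of the first, and the TGFβ + RA libraries were below all others. Mcm10 is a replication factor that despite its name is no subunit of the MCM ring (ENSMUSG00000026669, chromosome 2, 4989714 to 5012791, minus strand). Its level was 33, 26.8 and 28.6 CPM in IL-2 + IL-15, 16.7, 17.5 and 10.3 with RA, 22.4, 21.5 and 22.4 with TGFβ and 1.80, 2.07 and 1.47 with both. RA replicate 3 was well below its fellows, and TGFβ + RA libraries held 6.09% of the IL-2 + IL-15 level by the fitted fold change, -4.04 ± 0.20 (adjusted p = 1.12e-09). The interaction of Mcm10 was -2.64 ± 0.25 (adjusted p = 1.29e-05). Cdc45, which joins MCM and GINS in the active helicase, was at 35.5, 31 and 30.03 CPM in IL-2 + IL-15, 17.5, 18.7 and 14.1 with RA, 26.5, 21.6 and 22.1 with TGFβ and 3.60, 4.17 and 3.86 with both. Its groups did not overlap, and its fold change with both was -3.04 ± 0.13 (adjusted p = 3.26e-10). Gins1 and Gins2, subunits of the GINS complex, fell by 1.80 and 2.34 with both. All 4 had a called negative interaction, for Gins1 at adjusted p = 0.0496 by edgeR. That of Gins1 was lost in 11 of 18 settings, among them library totals (0.0532) and the replicate block (0.0558). Reads of Gins2 may include those of another gene, since 67.3% of its exon bases are also annotated on the opposite strand, in Gse1. The strand setting is not given in the sources used here.

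All 6 subunits of the MCM ring fell with both factors, with a median of -0.97. They were also all called lower with TGFβ alone, and 5 with RA alone, Mcm2 being the exception (-0.09 ± 0.06, adjusted p = 0.334). Mcm6, the highest of the 6 per exon length over all libraries, was at 300.0, 282 and 259 CPM in IL-2 + IL-15, 226, 250.0 and 225 with RA, 201, 203 and 212 with TGFβ and 133, 133 and 136 with both. The TGFβ + RA libraries of Mcm6 were below all others, with a fold change of -1.06 ± 0.06 (adjusted p = 3.51e-09). Mcm3, the subunit with the lowest fold change with both, was at 187, 179 and 173 CPM in IL-2 + IL-15, 129, 139 and 113 with RA, 122, 112 and 123 with TGFβ and 55.6, 58.1 and 56.4 with both. Its groups IL-2 + IL-15 and TGFβ + RA stood apart from the rest, while RA and TGFβ overlapped, and the fold changes were -0.50, -0.59 and -1.66 ± 0.07 (adjusted p = 3.15e-10) with RA, TGFβ and both. Mcm4, the subunit with the smallest fall, was at 145, 154 and 145 CPM in IL-2 + IL-15, 121, 128 and 115 with RA, 138, 132 and 134 with TGFβ and 123, 118 and 117 with both. Its 12 values spanned a narrow range, it fell by 0.31 with both, and adding TGFβ to RA did not give a call (-0.03 ± 0.05, adjusted p = 0.615). Mcm5, Mcm7 and Mcm2 fell by 1.52, 0.88 and 0.80 with both.

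Although the ring holds its subunits in equal number, their transcripts did not lie at equal levels. Per exon length, Mcm2 was the lowest subunit in every group and Mcm6 the highest in all but TGFβ + RA, where Mcm4 was the highest. The highest subunit exceeded the lowest 3.69-fold in IL-2 + IL-15, 3.27-fold with RA, 3.46-fold with TGFβ and 3.56-fold with both. These values depend on the annotated exon union, 6956 bases for Mcm2 against 3589 for Mcm4 and 4666 for Mcm6. By mean CPM, Mcm5 (44.9) and Mcm3 (56.7) lay below Mcm2 (65.0) with both factors, and Mcm5 (83.8) below Mcm2 (106) with RA. In IL-2 + IL-15 and TGFβ, Mcm2 was the lowest by CPM too (113 and 88.4). An interaction was called for Mcm2, Mcm3, Mcm5 and Mcm6, and not for Mcm4 (0.11 ± 0.07, adjusted p = 0.293) or Mcm7 (-0.18 ± 0.07, adjusted p = 0.108).

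Promoter windows show which letters the genes with large and small changes carry near their starts. RefSeq windows for GRCm38.p6, 250 bases before to 50 bases after each start, were at hand for 37 of the 44 genes; Ccne2, Gins1, Gins2, Mcm4, Pole, Prim2 and Rfc2 had none. The searched E2F words were TTTCCCGC, TTTGGCGC, TTTCGCGC and TTTGCCGC on either strand, and words may overlap. They were found in 14 of the 37 genes (37.8%), in 4.74% of 9595 tested genes with a window, and in 7.69% of 26 mitosis genes. Of the letters TTTGAA or TTTAAA, the cell cycle homology region (CHR) that late cell cycle promoters carry, also on either strand, the shares were 24.3%, 22.3% and 84.6%. CCAAT on either strand was found in 62.2%, 43.0% and 80.8%. The median fold change with both factors was -1.31 over the 14 genes with E2F words, -1.02 over the 23 without and -1.62 over the 7 with no window, and each set spanned a wide range. A match is a description of letters and not a measured site.

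The stretches below are part of each window, from -170 to -1 (to -20 for Orc1), and run 5′ to 3′ on the gene's strand. Orc1, Mcm5 and Mcm6 are shown because they carry E2F words, in capitals, and Mcm10 and Rpa1, the genes with a large fall and with the largest rise, because their windows carry none; there the capitals mark CCAAT. Positions count from the RefSeq start, with the base before it at -1.
Orc1, chr4:108579284-108579434, plus strand: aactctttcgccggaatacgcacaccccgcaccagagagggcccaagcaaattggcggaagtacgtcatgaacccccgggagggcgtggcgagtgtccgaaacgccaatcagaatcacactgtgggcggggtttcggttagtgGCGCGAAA
Mcm5, chr8:75109339-75109508, plus strand: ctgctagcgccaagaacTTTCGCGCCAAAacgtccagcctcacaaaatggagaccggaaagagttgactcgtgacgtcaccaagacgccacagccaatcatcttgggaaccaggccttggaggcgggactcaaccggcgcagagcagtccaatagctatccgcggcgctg
Mcm6, chr1:128359706-128359875, minus strand: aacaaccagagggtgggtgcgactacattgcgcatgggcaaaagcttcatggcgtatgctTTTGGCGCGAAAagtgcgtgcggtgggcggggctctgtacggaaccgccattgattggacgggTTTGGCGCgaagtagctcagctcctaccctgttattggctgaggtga
Mcm10, chr2:5012792-5012961, minus strand: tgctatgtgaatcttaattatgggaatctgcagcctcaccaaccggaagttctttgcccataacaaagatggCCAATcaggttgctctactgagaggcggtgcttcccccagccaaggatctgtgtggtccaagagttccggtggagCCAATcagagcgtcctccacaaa
Rpa1, chr11:75348384-75348553, minus strand: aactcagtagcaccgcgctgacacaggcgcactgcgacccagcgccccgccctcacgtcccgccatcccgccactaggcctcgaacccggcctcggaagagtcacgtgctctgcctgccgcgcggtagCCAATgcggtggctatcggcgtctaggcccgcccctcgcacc
In Orc1 the word begins at -27. In Mcm5 overlapping words begin at -153 and -149, and in Mcm6 words begin at -110, -106 and -47, the first 2 overlapping. The CCAAT letters begin at -98 and -23 in Mcm10 and at -42 in Rpa1, and each of these windows holds 1 more outside the stretch shown. Orc1 and Mcm10 both fell by more than 4 on the log2 scale, with and without E2F words, and Mcm6 with 3 words fell by 1.06.

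**Figure D3:**
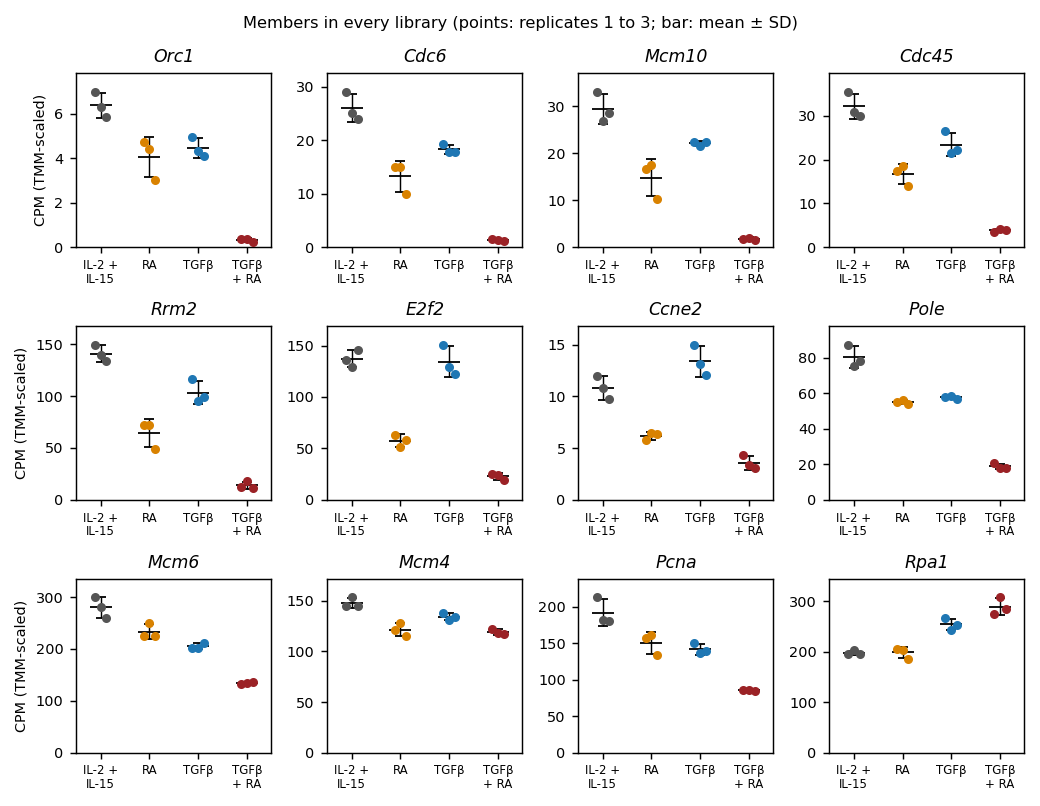
CPM (TMM-scaled, linear axes from 0) in each of the 12 libraries for 12 of the 44 genes. Points are replicates 1 to 3 of a group, and bars are the mean ± SD (n = 3). In Orc1, Cdc6 and Mcm10 the TGFβ + RA points sit near 0, Mcm4 changes little, and Rpa1 is highest in TGFβ + RA.

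Of the 8 polymerase and primase genes, 8 fell with both factors, 7 with RA and 6 with TGFβ. One of the 6 was Prim2, whose call with TGFβ was lost in 16 of 19 settings, at adjusted p = 0.0515 to 0.169. Pole, the catalytic subunit of the leading-strand polymerase, was at 87.4, 75.3 and 78 CPM in IL-2 + IL-15, 55.2, 56.3 and 54 with RA, 57.9, 58.2 and 56.9 with TGFβ and 20.5, 18.2 and 18.2 with both. RA and TGFβ libraries lay at like levels between the other groups, and TGFβ + RA libraries were below all. The fold change of Pole was -2.09 ± 0.06 (adjusted p = 2.44e-11) with both, and its interaction of -1.07 ± 0.09 (adjusted p = 4.01e-06) was among the 4 smallest adjusted p of the set. Pola1, the catalytic subunit of the polymerase that makes the primers' first DNA, fell by 2.02 with both, and Pold1, the catalytic subunit of the lagging-strand polymerase, by 1.04. Pold2, an accessory subunit of the same enzyme and the highest polymerase gene per exon length, was at 52.2, 57.5 and 52.4 CPM in IL-2 + IL-15, 45.7, 59 and 52.7 with RA, 43.1, 42.2 and 48 with TGFβ and 45.5, 47 and 43.6 with both. Its IL-2 + IL-15 libraries overlapped those of RA only, and the fold change with both was -0.25 ± 0.08 (adjusted p = 0.0166), a call lost in 4 of 19 settings. Pold2 was not called with RA (-0.04 ± 0.08, adjusted p = 0.768) or when RA was added to TGFβ (0.03 ± 0.08, adjusted p = 0.803). The other 4, Pole2, Prim1, Prim2 and Pola2, fell by 0.62 to 1.25 with both.

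The clamp, its loader, the single-strand binding protein RPA and the enzymes that join Okazaki fragments held the 2 genes that rose. The other 7 were called lower with both. Summed over the 9, the level was 90.0% of that in IL-2 + IL-15 with RA, 97.9% with TGFβ and 88.9% with both. Rpa1 makes up much of that sum: without it the other 8 summed to 547 ± 46.7 CPM in IL-2 + IL-15 and 374 ± 8.63 with both (SD, n = 3), or 86.4% with RA, 86.9% with TGFβ and 68.3% with both. Rpa1, the largest RPA subunit (ENSMUSG00000000751, chromosome 11, 75298166 to 75348324, minus strand), was at 195, 203 and 196 CPM in IL-2 + IL-15, 206, 203 and 186 with RA, 266, 244 and 253 with TGFβ and 274, 308 and 285 with both. All libraries with TGFβ were above all libraries without it. The fold changes were 0.36 ± 0.06 (adjusted p = 0.000155) with TGFβ and 0.55 ± 0.06 (adjusted p = 1.53e-06) with both, against 0.00 ± 0.06 (adjusted p = 0.978) with RA, a value whose sign changed under other settings. Rpa2, another RPA subunit, fell with RA (-0.33) and with both (-0.39) and had -0.16 ± 0.07 (adjusted p = 0.0721) with TGFβ. Rfc2, a subunit of the clamp loader, was at 75.5, 71.8 and 70.6 CPM in IL-2 + IL-15, 75.4, 71.4 and 70.9 with RA, 88.2, 88.5 and 84.2 with TGFβ and 92.8, 89.9 and 84.6 with both. Here too each library with TGFβ exceeded each library without it, with 0.26 ± 0.05 (adjusted p = 0.000785) for TGFβ and 0.29 ± 0.05 (adjusted p = 0.00015) for both. The other loader subunits Rfc3, Rfc4 and Rfc5 fell by 0.96, 0.97 and 0.42 with both. Exons of Rfc2, Rfc4 and Rfc5 are annotated on the opposite strand over 15.1%, 12.7% and 10.7% of their bases, in Lat2, Eif4a2 and Wsb2.

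Pcna, the clamp and the gene with the highest RPKM of the set (59.4 over all libraries), was at 213, 182 and 181 CPM in IL-2 + IL-15, 158, 161 and 133 with RA, 150.4, 137 and 139 with TGFβ and 85.7, 86.1 and 84.2 with both. RA libraries overlapped those of TGFβ, and TGFβ + RA libraries were below all others, with a fold change of -1.17 ± 0.08 (adjusted p = 2.3e-08). Lig1, the ligase that seals Okazaki fragments, was at 118, 97 and 95.6 CPM in IL-2 + IL-15, 124, 113 and 79.2 with RA, 92.8, 86.7 and 89.3 with TGFβ and 79.7, 89.3 and 81.1 with both. Its RA libraries spanned those of IL-2 + IL-15, with RA replicate 3 the lowest of the 12, and the fold change with both was -0.31 ± 0.13 (adjusted p = 0.0477). That call was lost in 8 of 19 settings, among them library totals (0.102), without IL-2 + IL-15 replicate 1 (0.187) and without any 1 library of TGFβ or TGFβ + RA. With RA alone Lig1 had 0.03 ± 0.13 (adjusted p = 0.906), and with the 9 libraries it was called higher (adjusted p = 0.0022 by edgeR), so its value depends on which libraries are used. Fen1, the nuclease that trims the fragments, fell by 0.96 with both, and 84.2% of its exon bases are also annotated on the opposite strand, in Tmem258 and Gm10143. Of the 9 genes only Pcna and Fen1 had a called interaction, negative for both, where 12.3% of all tested genes were called negative. The call of Pcna was lost in 6 of 18 settings.

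**Figure D4:**
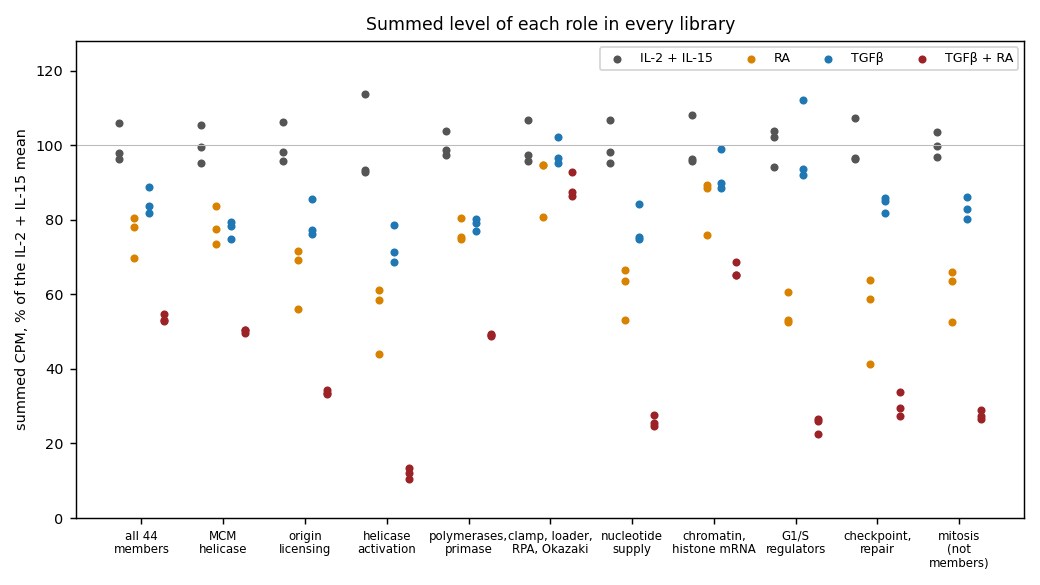
Summed CPM of the genes of each role in each library, as a percentage of the mean of the 3 IL-2 + IL-15 libraries (y axis from 0), with 30 mitosis genes for comparison. Each point is 1 library. With both factors helicase activation stood at 12% and the clamp, loader, RPA and Okazaki genes at 88.9%, or at 68.3% without Rpa1.

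All 4 genes of deoxynucleotide supply fell with RA and with both factors, and 3 with TGFβ. Rrm2, the regulated subunit of ribonucleotide reductase, which makes the building blocks of DNA, was at 149.6, 139 and 134 CPM in IL-2 + IL-15, 71.6, 72.4 and 49.2 with RA, 116, 95 and 98.7 with TGFβ and 12.3, 17.9 and 11.8 with both. TGFβ + RA libraries were below all others, RA libraries below those of TGFβ, and RA replicate 3 low in its group. The fold changes of Rrm2 were -1.13 with RA, -0.45 with TGFβ and -3.32 ± 0.17 (adjusted p = 1.56e-09) with both, or 10.04% of the IL-2 + IL-15 level. Rrm1, the large subunit of the same enzyme, fell by 1.35 with both. Tk1, which salvages thymidine, was at 53.6, 44 and 45.5 CPM in IL-2 + IL-15, 33.2, 35 and 35.7 with RA, 32.1, 32.8 and 29.2 with TGFβ and 12.2, 14.8 and 12.5 with both. Its RA libraries were above the TGFβ libraries, the reverse of most genes of the set, and its fold change with TGFβ (-0.61 ± 0.09, adjusted p = 7.07e-05) was the lowest of the 44. Tyms, which makes thymidylate, fell by 1.29 with both and had -0.15 ± 0.11 (adjusted p = 0.301) with TGFβ. The interaction was called for all 4, though for Tyms the call was lost in 11 of 18 settings (adjusted p = 0.0562 to 0.112).

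Of the 4 G1/S regulators, 2 fell with RA, 0 were called with TGFβ and 4 fell with both. Among all tested genes, 14.3% were called lower with RA, 22.4% lower and 20.7% higher with TGFβ, and 32.4% lower with both. The summed level was 204 ± 10.3 CPM in IL-2 + IL-15, 113 ± 9.04 CPM with RA, 203 ± 22.8 CPM with TGFβ and 51.3 ± 4.51 CPM with both. TGFβ libraries overlapped those of IL-2 + IL-15, and both groups with RA lay below. E2f2, a transcription factor of the E2F family, was at 136, 129 and 146 CPM in IL-2 + IL-15, 63.4, 51.6 and 58.1 with RA, 151, 129 and 123 with TGFβ and 24.8, 24.2 and 19.3 with both. Its fold change with RA, -1.25 ± 0.10 (adjusted p = 1.33e-06), was the lowest of the 44, while that with TGFβ was -0.03 ± 0.10 (adjusted p = 0.84) and changed sign under other settings. With both it was -2.59 ± 0.11 (adjusted p = 2.88e-10). Ccne2, a cyclin E that activates Cdk2, was at 12, 10.8 and 9.70 CPM in IL-2 + IL-15, 5.78, 6.47 and 6.33 with RA, 15, 13.2 and 12.1 with TGFβ and 4.34, 3.33 and 3.05 with both. TGFβ libraries were all above those of IL-2 + IL-15 by a margin that missed the threshold (0.31 ± 0.12, adjusted p = 0.0619), while it fell by 0.81 with RA and by 1.62 with both. E2f1 and Ccne1, another E2F factor and another cyclin E, fell with both factors (-1.01 and -1.28) and had no call with RA (-0.24 ± 0.09, adjusted p = 0.0544 and -0.17 ± 0.13, adjusted p = 0.383). By edgeR 0 of the 4 were called with TGFβ, as by DESeq2's Wald test, and 1, Ccne2, had an unadjusted p under 0.05. Ccne2 was called higher with TGFβ in 7 of 19 settings: library totals (0.029), the replicate block (0.0293), only the 6 samples (0.0435), the 9 libraries (0.0272), and without IL-2 + IL-15 replicate 1 (0.0404), TGFβ replicate 3 (0.0497) or TGFβ + RA replicate 1 (0.0388), all adjusted p by edgeR. All 4 had a called negative interaction. Ccne2 shares 17.4% of its exon bases with Ints8 on the opposite strand.

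The 3 genes of chromatin assembly and histone mRNA all fell with both factors, with a median of -0.64. Chaf1a and Chaf1b, subunits of the factor that places histones on new DNA, fell by 1.60 and 0.64 with both, and 52.5% of the exon bases of Chaf1a are also annotated in Ubxn6 on the opposite strand. Slbp, which binds the stem-loop of histone mRNA, was at 92.8, 80.7 and 83.3 CPM in IL-2 + IL-15, 83.7, 79.8 and 70.3 with RA, 88.7, 76.5 and 76.1 with TGFβ and 71.5, 72.2 and 67.9 with both. Its groups overlapped apart from TGFβ + RA, which lay below the rest except 1 RA library, and the fold change with both was -0.28 ± 0.08 (adjusted p = 0.00622). Clspn, the adaptor that passes the signal of stalled forks to Chk1, was at 52.5, 48.3 and 49.96 CPM in IL-2 + IL-15, 29.4, 32.5 and 19.9 with RA, 45.7, 46.8 and 43.3 with TGFβ and 19.2, 22.6 and 17.7 with both. Its RA group held a low replicate 3 that lay among the TGFβ + RA libraries. Clspn fell by 0.88 with RA and by 1.34 with both, had -0.15 ± 0.13 (adjusted p = 0.364) with TGFβ, and its interaction was not called (-0.31 ± 0.19, adjusted p = 0.277). Brca1, a repair factor of broken forks, fell by 0.85, 0.39 and 2.48 with RA, TGFβ and both.

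Single libraries deviated from their group in 1 direction over many of the 44 genes. IL-2 + IL-15 replicate 1 was the highest of its group in 37 genes, RA replicate 3 the lowest of its group in 35 and TGFβ replicate 1 the highest in 31. The median SD over the 44 was 7.38% of the mean in IL-2 + IL-15, 9.97% with RA, 5.26% with TGFβ and 5.09% with both. These values bear on all 44 genes at once, so the genes are not independent readings of a library.

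Most other genes of the same processes also fell with both factors. Of 38 tested replication genes outside the set, 27 fell and 3 rose (Donson, Mcm9 and Orc3), with a median of -0.59, where 32.4% of all tested genes were called lower and 30.8% higher, as for each list below. Pclaf, which binds PCNA, went from 111 ± 10.4 to 4.21 ± 1.74 CPM (-4.67 ± 0.24), and Nasp, a histone chaperone (-1.09), and Topbp1, an initiation and checkpoint factor (-0.95), also fell. Not called among them were the ORC subunits Orc4 and Orc5 and the GINS subunit Gins4. Of 17 nucleotide synthesis genes outside the set 14 fell and 1 rose, with a median of -0.84: the folate enzymes Shmt1 (-3.15) and Mthfd1 (-1.34) fell, as did Impdh2, which makes guanine nucleotides (-1.18). The gene that rose, Rrm2b (0.50), encodes the other small subunit of ribonucleotide reductase, which is used outside S phase. Of 16 checkpoint and fork repair genes 11 fell, including Fancd2 (-3.43) and Fanci (-1.40), and 1 rose (Atr).

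Of 21 tested regulators of the E2F, RB and DREAM group, 15 fell with both factors, and the median was -0.41. Those that fell included E2f8, a repressor of the E2F family (-4.37), Ccna2, the S phase cyclin A (-4.34), and Foxm1, which drives late cell cycle genes (-3.32). The other 6, Rb1, E2f4, Cdk2, Lin9, Lin37 and Lin52, were not called, with values from -0.10 to 0.06. Of 10 D-type cyclin, CDK and inhibitor genes, 8 fell and 1 rose. The one that rose was Cdkn1b, which encodes the CDK inhibitor p27 (0.40). Other CDK inhibitor genes were among the 8 that fell, and the lowest value of the list was -4.46. Cdk4 (-0.63), Cdk6 (-0.85) and Ccnd3 (-0.67) fell. Ccnd1, a D-type cyclin, rose with TGFβ alone (3.90 ± 0.35), had 0.54 ± 0.46 with both, and fell when RA was added to TGFβ (-3.37 ± 0.33).

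Mitosis genes, whose transcripts peak after S phase, had a lower median with both factors than the replication genes. Their summed level, as a share of IL-2 + IL-15, was 60.7% with RA, 83.1% with TGFβ and 27.7% with both, against 76.1%, 84.8% and 53.5% for the 44. With both factors 28 of 30 fell and 1 rose, Smc4, with a median of -3.21. Mki67, the antigen Ki-67 of cycling cells, went from 596 ± 25.9 to 44.7 ± 9.44 CPM, Top2a, a topoisomerase, from 639.9 ± 18.6 to 105 ± 9.90, and the kinase gene Ttk fell by 4.02. With RA alone 29 fell and with TGFβ alone 13, with medians of -0.72 and -0.28, where 14.3% and 22.4% of all tested genes were called lower. The difference between these 2 lists was not tested.

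**Figure D5:**
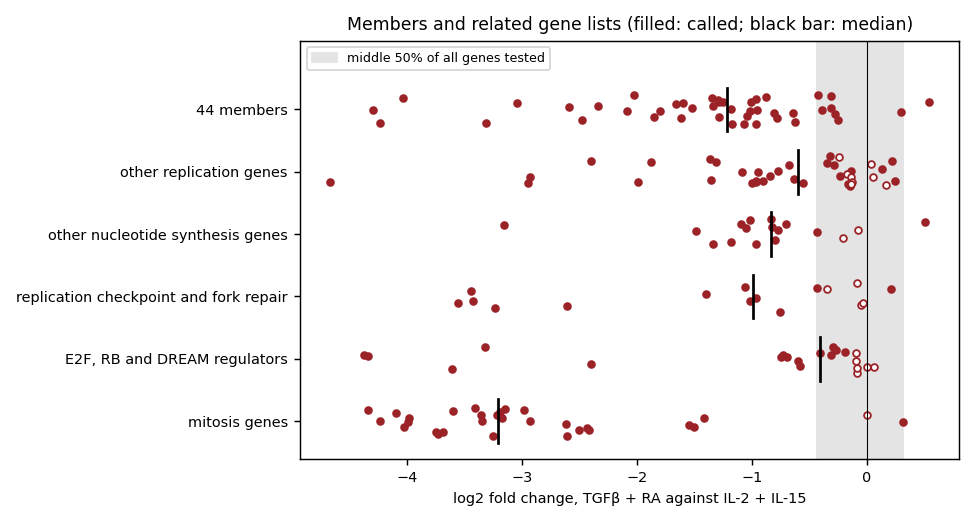
Log2 fold change of TGFβ + RA against IL-2 + IL-15 (x axis) for the 44 genes and 5 other gene lists. Each point is 1 gene, filled where called, black bars are medians, and the band is the middle 50% of all tested genes. Medians run from -0.41 for the E2F, RB and DREAM list to -3.21 for mitosis genes, with -1.22 for the 44.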

How the data were processed

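RNA from 12 samples of cultured CD8 T cells, 3 per group, was made into stranded mRNA libraries, per the labels' protocols. Reads were aligned with STAR and assigned with featureCounts on GRCm38, per the submitters' processing notes; for versions, annotation and strand setting, none is given in the sources used here. What the authors deposited are raw, unnormalized counts for each gene, with totals of 18300206 to 33477037 per library. No row lacked a gene name and 0 sample columns were left unused.

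In R 4.3.3, edgeR 4.0.16 was run with filterByExpr (minimum count 10) and TMM scaling, and 1 quasi-likelihood model was fitted to all 12 libraries with a separate level for each group, which leaves 8 residual degrees of freedom. The tests were the interaction and 5 contrasts between group pairs, over 14009 genes, with Benjamini-Hochberg adjustment and a threshold of 0.05. Fold changes used a prior count of 0.125. Each SE was taken by dividing the absolute fold change by the root of its F statistic. RPKM divides CPM by the union of GENCODE exons for GRCm38. Replicates differed by more than counting noise, so each library counted once. The test was checked on simulated counts with the same dispersion for every gene and few genes changed, in RA libraries only. That setting is simpler than these data, so the check says little about error rates here. Promoter windows are RefSeq's for GRCm38.p6.

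The 44 genes, their roles and the other lists were chosen with earlier results of these data known. Values in every library are given for the 2 highest and 2 lowest fold changes of each contrast, the 4 smallest interaction p, the highest RPKM of each role and any gene called against the majority; other lists name up to 3 called genes per contrast, by smallest adjusted p, and genes named beyond these rules were chosen after their values were seen. Alternatives were DESeq2 1.42.0 size factors, library totals, no filter, DESeq2's Wald test, the replicate number as a block, only the 6 samples compared, leaving out each replicate, and, chosen after seeing the data, the 9 libraries. The values of 1 gene of the checkpoint and fork repair list are not reported here.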

Additional observations from a re-analysis of the deposited data

Results flagged for a closer look

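In 28 of the 44 genes the effect of RA differed between cultures without and with TGFβ, by edgeR's test of the interaction (adjusted p under 0.05). Each interaction is a difference of log2 fold changes, and each was negative. The licensing genes Orc1 and Cdc6 and the helicase activation gene Mcm10 had the lowest values, while the licensing gene Orc6 had -0.20 and no call. The genes at or below -1 were Orc1 (-3.13), Cdc6 (-2.76), Mcm10 (-2.64), Rrm2 (-1.74), Cdc45 (-1.65), E2f2 (-1.32), Brca1 (-1.24), Ccne2 (-1.12), Gins2 (-1.12), Ccne1 (-1.11), Pola1 (-1.09) and Pole (-1.07). Between -1 and -0.5 lay Chaf1a (-0.89), Gins1 (-0.88), Tk1 (-0.78), E2f1 (-0.67), Rrm1 (-0.66), Fen1 (-0.57), Mcm3 (-0.57), Mcm5 (-0.57), Prim1 (-0.54), Pole2 (-0.51) and Cdt1 (-0.50). The remaining values were Tyms (-0.49), Pcna (-0.38), Mcm2 (-0.36), Mcm6 (-0.35) and Prim2 (-0.34). Counts of 6 to 12 in the TGFβ + RA libraries stand behind the value of Orc1, which limits its precision.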

How the results depend on the processing

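Of 4972 recomputed fold changes of the 44 genes, 4723 kept their direction and their side of the threshold, 171 lost a call, 37 gained one and 41 changed sign. Some of the 4972 left out only a library of a group outside their comparison, which makes them a weaker check. Every sign change was in a value without a call in the main analysis. Leaving out 1 replicate gave these ranges of log2 fold change for the genes that changed sign: for TGFβ, Ccne1 -0.143 to 0.0974, Chaf1b -0.00634 to 0.0425, E2f2 -0.12 to 0.033 and Fen1 -0.131 to 0.0175. For RA, Lig1 -0.0878 to 0.205, Pold2 -0.126 to 0.0659, Rfc2 -0.0217 to 0.0394 and Rpa1 -0.00796 to 0.058. For RA added to TGFβ, Pold2 -0.00506 to 0.0901. For the interaction, Pold2 -0.0425 to 0.149, Rfc2 -0.0126 to 0.0715 and Slbp -0.140 to 0.0221. With the 9 libraries, Ccne1 with RA (0.0543) and with TGFβ (0.097), Fen1 with TGFβ (0.017), Rfc2 with RA (0.0555), Slbp with RA (0.00535) and the interaction of Rpa2 (-0.0186) changed sign. With library totals the values were 0.0534 for Ccne1 and 0.0355 for E2f2 with TGFβ, 0.0556 for Mcm4 and 0.0247 for Rpa2 when TGFβ was added to RA, and -0.0133 for Rpa1 with RA. Rfc2 with RA was 0.00247 with DESeq2 size factors, 0.0026 with DESeq2's Wald test and 0.013 with only the 6 samples, and Rpa1 with RA was -0.00228 without the filter. Leaving out 1 replicate gave 17 to 29 genes of the set lower with TGFβ and 0 to 1 higher when RA was added to TGFβ. Over all genes, positive interactions numbered 583 to 1654 in place of 974, at 627 without IL-2 + IL-15 replicate 2, 583 without RA replicate 2 and 1654 without RA replicate 3, and 1718 with the 9 libraries. The 9 libraries also called 1 gene of the set higher with RA. The cause was not tested.

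Same-numbered replicates had correlated deviations in 10 of 18 pairs (r over 0.1, range -0.0039 to 0.341). The mean correlation over partners was highest for its own number in 12 of 12 libraries, and the single highest one in 11. The main model still left the numbers unpaired, because the labels do not say that they pair samples, and the block was an alternative. With the replicate block, 35 genes of the set were lower with RA, 28 with TGFβ, 42 with both, 40 when RA was added to TGFβ and 40 when TGFβ was added to RA, and 27 interactions were negative; Ccne2 was called higher with TGFβ (adjusted p = 0.0293 by edgeR). Depth limits Orc1 most, with 6 to 12 counts per TGFβ + RA library.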
